A study of Mus musculus with 12 samples.

Results

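Among 12 mouse tumours profiled by RNA sequencing, the 8 with little skeletal muscle RNA were compared: 4 from mice given palbociclib and mirdametinib, and 4 from mice given vehicle. Muscle RNA was read from Atp2a1 (ENSMUSG00000030730, chr7:126445858-126463108 in GRCm38), which encodes the calcium pump of fast muscle fibres. A tumour was kept where Atp2a1 was under 2500 CPM, that is, counts per 1000000 counted reads of its library. The tumours were thus chosen by a measured value, and the muscle values are given without a test. The limit kept 4 of 8 treated and 4 of 4 vehicle tumours, and removed tumours from the treated side only. The tumour just inside the limit was regressing 3 with 2201 CPM, and the one just outside it was terminal combination 4 with 4141 CPM.

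The tumours were malignant peripheral nerve sheath tumours, which are aggressive sarcomas of the nerve sheath. They were induced with an adenovirus carrying Cas9 against Nf1 and against Cdkn2a (written Cdk2na in the labels), in mice labelled strain C57B/6 and genotype WT. The treated mice received 100 mg/kg palbociclib with 1 mg/kg mirdametinib every day by oral gavage. Of the 4 treated tumours, regressing 2 and 3 were taken during regression and terminal combination 1 and 3 at the terminal time point. Vehicle tumours 1 to 4 were taken at the terminal time point after the vehicle alone. The labels do not say that each tumour came from its own mouse, and the p-values cover only how these 8 samples spread, which may be technical in part. Values of the treated tumours are listed below as regressing 2, regressing 3, terminal combination 1 and terminal combination 3, and those of the vehicle tumours from 1 to 4.

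Palbociclib blocks the kinases CDK4 and CDK6, which phosphorylate the retinoblastoma protein (RB) and so release the E2F factors that drive entry into S phase. Mirdametinib blocks MEK, the kinase that activates ERK. Loss of NF1, a brake on RAS, raises signalling through MEK and ERK, and loss of CDKN2A removes an inhibitor of CDK4 and CDK6, so both drugs act downstream of the lesions these tumours were built with. Counts over a whole gene cannot show a small Cas9 edit, and host cells add unedited RNA. Nf1 had 12.8, 12.1, 24.3 and 17.95 CPM in the treated tumours, against 18.2, 10.8, 22.7 and 22.3 CPM in the vehicle tumours, with overlapping arms. Cdkn2a had 7.67, 237, 21.6 and 128 CPM in the treated tumours, against 220, 259, 5.24 and 115 CPM in the vehicle tumours. It was low in regressing 2, terminal combination 1 and vehicle 3 and above 100 CPM in the other 5 tumours, so it split both arms.

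The 8 libraries held between 14181703 and 22639625 counted reads, and no pair of libraries were duplicates. The share of reads from mitochondrial genes ran from 0.785% to 1.01% in the treated and from 0.562% to 0.982% in the vehicle tumours. A count of 0 in 1 of these libraries allows a level of up to 0.133 to 0.212 CPM, set at 3 counts and covering counting error only. Sox10, a defining factor of Schwann cells, had 1.19, 1.16, 0 and 2.16 CPM in the treated tumours, against 0.0867, 0, 0.0524 and 0 CPM in the vehicle tumours. It was at 0 in terminal combination 1 and in vehicle 2 and 4. This marker was thus low in both arms, although the label is a nerve sheath tumour.

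**Figure D1:**
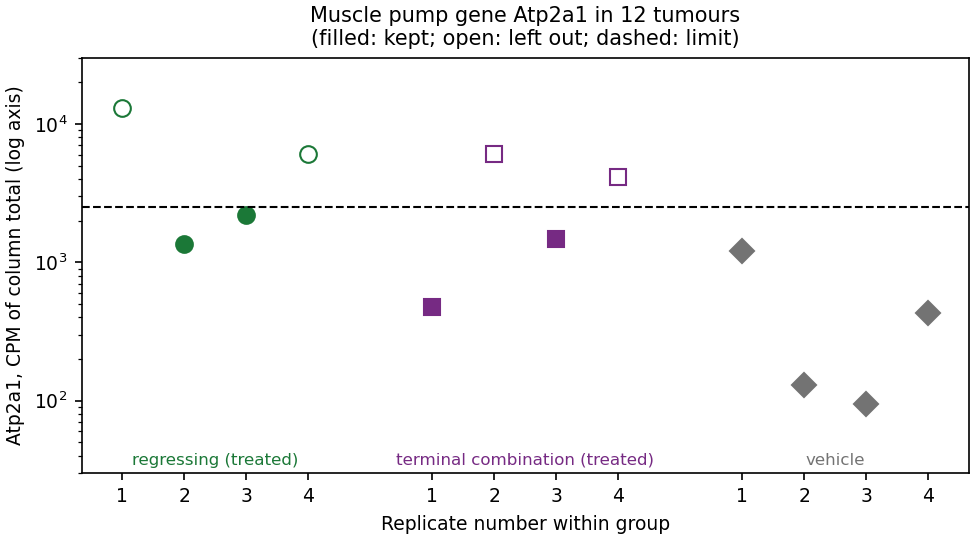
Atp2a1 in all 12 tumours in CPM of the column total on a log axis, regressing and terminal combination tumours left of vehicle. Filled symbols lie under the dashed limit of 2500 CPM and were kept, open symbols were left out, and the 4 kept treated tumours lay between 471.8 and 2201 CPM, against 94.36 to 1214 CPM in vehicle.

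The muscle limit did not make the arms equal. Atp2a1 had 1346, 2201, 471.8 and 1479 CPM of the library total in the treated tumours, against 1214, 130.4, 94.36 and 427.2 CPM in vehicle. Vehicle 1 exceeded terminal combination 1, and vehicle 2 and 3 had the least. Over the 16 genes of the skeletal muscle list the summed level ran from 3287 to 12780 CPM in the treated and from 732 to 11090 CPM in the vehicle tumours. The median log2 difference of the list was 1.16 among the 8 tumours (1.99 without vehicle 1) and 2.73 among all 12. As Atp2a1 chose the tumours, these muscle values are a description and were not tested.

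No gene differed between treated and vehicle tumours after adjustment. Of 15111 genes tested with the edgeR quasi-likelihood model, 0 (0.0%) had a Benjamini-Hochberg adjusted p under 0.05, and the smallest adjusted p was 0.999. Unadjusted p-values under 0.05 were given to 556 genes (3.68%), of which 323 were higher (2.14%) and 233 were lower (1.54%) in treated tumours, where an even spread of p-values would give 756. DESeq2 called 2 of 25429 genes (0.00787%), both higher in treated tumours: Ighg1 with an adjusted p of 0.00788 and Pcdhga3 with 0.0183. The median log2 difference over all genes was -0.01 and its median absolute size was 0.19.

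With the 4 left-out treated tumours put back, 0 of 15650 genes passed either, but 1588 (10.1%) had an unadjusted p under 0.05, where an even spread would give 782. The smallest adjusted p was then 0.409. Both comparisons share 8 tumours. With the level of the muscle list as a covariate among the 8, the unadjusted count was 676 and again 0 genes passed. Leaving out 1 tumour at a time gave unadjusted counts from 317 without regressing 3, and 399 without vehicle 3, to 784 without vehicle 1, with 0 calls each time. In simulated counts with the means and spread of these 8 libraries, edgeR recovered 7.37% of genes changed 2-fold, 55.5% of those changed 4-fold and 77.1% of those changed 8-fold. DESeq2 recovered 31.1%, 80% and 88.1% but called 158 of 44733 unchanged genes (0.353%), against 12 (0.0268%) by edgeR. Each simulated gene was drawn independently of the others, without variation shared between genes, such as by harvest stage or muscle content. The recovery in the real tumours may therefore differ. In the simulated counts, differences of 2-fold were mostly not detectable with 4 tumours an arm.

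**Figure D2:**
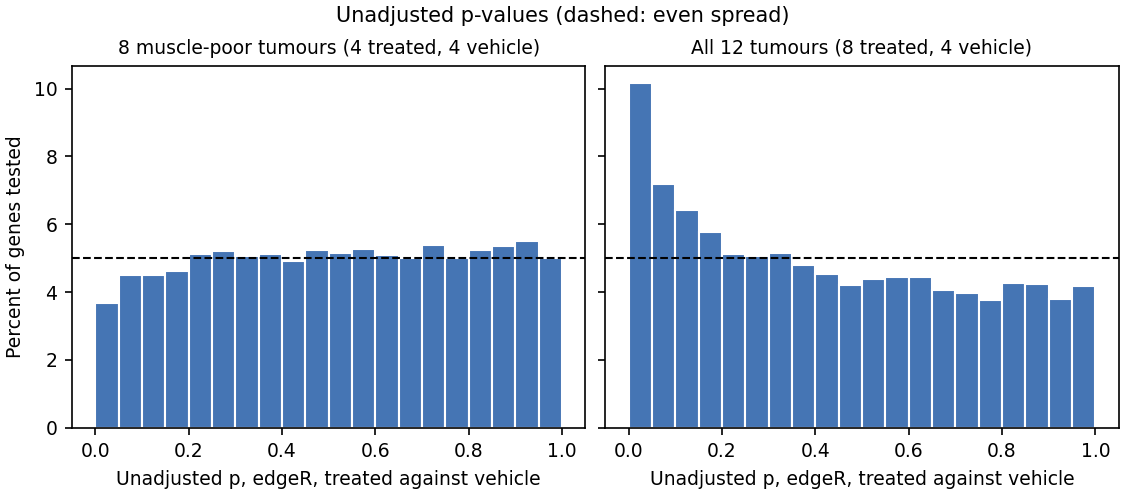
Percent of genes (vertical axis) by unadjusted edgeR p (horizontal axis, bins of 0.05) for treated against vehicle, among the 8 muscle-poor tumours (left) and all 12 (right); the dashed line is an even spread of 5% a bin. The lowest bin holds 3.68% of genes on the left and 10.1% on the right.

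Genes of G2 and mitosis had lower estimates in treated tumours throughout the list. All 30 listed genes were tested, 30 had a negative log2 difference, and the median was -0.37 against -0.01 over all genes. None passed after adjustment. 7 of the 30 had an unadjusted p under 0.05, all of them lower, against 1.54% of all genes lower at that threshold. Their summed level was 2191, 1600, 1577 and 2109 CPM in the treated tumours, against 2034, 2059, 2757 and 2556 CPM in the vehicle tumours. Regressing 2 and terminal combination 3 were thus above vehicle 1 and 2, and the arms overlapped. The 30 genes were read in the same 8 tumours and are not 30 separate observations. In bulk tissue, fewer dividing cells and less of these RNAs per cell cannot be told apart.

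The promoters of the 4 listed genes with the smallest p are printed, and they were not chosen for their sequence. Each holds letters of the element by which G2 and mitosis genes are known to be held off by RB-family complexes. That element, the cell cycle homology region, often lies near a CCAAT box, which binds NF-Y, whereas genes of the G1 to S transition are known more for E2F sites. Each window runs from 250 bases before to 50 bases after the RefSeq start on GRCm38.p6, 5′ to 3′ on the gene's strand. Capitals mark matches, on either strand, to TTTGAA or TTCGAA (cell cycle homology region) and to CCAAT, and in Ube2c a pair of CCAAT matches overlap as CCAATTGG.
Cenpa (chr5:30666636-30666935, plus strand): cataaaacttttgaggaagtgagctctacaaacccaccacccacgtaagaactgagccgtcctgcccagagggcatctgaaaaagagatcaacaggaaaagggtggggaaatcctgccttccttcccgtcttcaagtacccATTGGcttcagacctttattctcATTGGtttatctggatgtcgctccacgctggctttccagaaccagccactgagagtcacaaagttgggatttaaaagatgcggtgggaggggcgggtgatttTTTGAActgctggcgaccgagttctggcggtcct
Cenpf (chr1:189688037-189688336, minus strand): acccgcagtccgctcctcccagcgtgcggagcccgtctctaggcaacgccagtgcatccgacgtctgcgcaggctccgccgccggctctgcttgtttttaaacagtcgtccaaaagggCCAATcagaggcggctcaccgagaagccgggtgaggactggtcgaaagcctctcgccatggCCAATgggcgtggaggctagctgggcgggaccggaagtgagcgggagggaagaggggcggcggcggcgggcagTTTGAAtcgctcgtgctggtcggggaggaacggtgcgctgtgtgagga
Mki67 (chr7:135716330-135716629, minus strand): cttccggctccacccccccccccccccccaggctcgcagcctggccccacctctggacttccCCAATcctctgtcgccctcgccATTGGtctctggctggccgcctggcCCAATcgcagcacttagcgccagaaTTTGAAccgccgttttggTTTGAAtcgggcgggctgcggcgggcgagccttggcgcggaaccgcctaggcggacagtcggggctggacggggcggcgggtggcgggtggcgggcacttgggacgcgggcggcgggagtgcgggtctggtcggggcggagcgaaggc
Ube2c (chr2:164769679-164769978, plus strand): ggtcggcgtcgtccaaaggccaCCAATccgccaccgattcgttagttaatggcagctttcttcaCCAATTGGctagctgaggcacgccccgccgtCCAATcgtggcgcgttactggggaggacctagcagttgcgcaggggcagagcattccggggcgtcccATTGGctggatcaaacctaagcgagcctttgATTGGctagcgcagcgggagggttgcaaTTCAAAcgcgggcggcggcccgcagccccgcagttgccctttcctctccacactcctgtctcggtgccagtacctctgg

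Cell cycle homology region letters were in 19 of the 24 G2 and mitosis genes with a window (79.2%), against 19.4% of all 27025 promoter windows. CCAAT was in 79.2% of the 24 and in 37.9% of all windows. The E2F letters TTTGGCGC, TTTCGCGC, TTTCCCGC or TTTGCCGC were in 1 of the 24 (4.17%), against 2.32% of all. On the E2F list they were in 9 of 28 windows (32.1%), where cell cycle homology region letters were in 17.9% and CCAAT in 60.7%. A match is a description of these letters and not a site of binding.

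Cenpa, the histone H3 variant that marks centromeres (chr5:30666777-30674830), had 46.4, 34.2, 41.4 and 38.7 CPM in the treated tumours, against 51.96, 64.9, 63.9 and 52.97 CPM in the vehicle tumours. Every treated tumour was below every vehicle tumour, and the log2 difference was -0.54 ± 0.15 (SE, unadjusted p = 0.00591). Among all genes tested, the arms did not overlap for 305 (2.02%), of which 143 were lower in treated tumours (0.946%). On this list it held for 2 of 30, Cenpa and the mitotic kinesin Kif23, a gene chosen after its values were seen. Cenpf, a kinetochore protein, had 24.6, 17.7, 23.1 and 32.2 CPM in the treated tumours, against 50.6, 28.1, 58.1 and 45.99 CPM in the vehicle tumours. Only terminal combination 3 exceeded the lowest vehicle tumour, and the difference was -0.91 ± 0.26 (unadjusted p = 0.0077). Mki67, which encodes the proliferation marker Ki-67, had 65.2, 46.9, 59.4 and 78.3 CPM in the treated tumours, against 111, 65.2, 174 and 156 CPM in the vehicle tumours. Vehicle 2 lay inside the treated range and the other 3 vehicle tumours above it, with a difference of -1.02 ± 0.31 (unadjusted p = 0.00927). Ube2c, the ubiquitin-conjugating enzyme of the anaphase-promoting complex, had 60.1, 44.95, 52.1 and 66.2 CPM in the treated tumours, against 60.2, 84.3, 78.8 and 83.1 CPM in the vehicle tumours. The highest treated value exceeded the lowest vehicle value only, and the difference was -0.46 ± 0.17 (unadjusted p = 0.0271).

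Some genes of the same list had estimates near 0. Chosen after their values were seen, Cdk1, the mitotic kinase, had 126, 95.03, 159.5 and 93.4 CPM in the treated tumours, against 95.9, 126, 125 and 129 CPM in the vehicle tumours, with a difference of -0.01, and Anln, the cytokinesis protein anillin, had -0.02. The median of the list ran from -0.46 to -0.26 when 1 tumour was left out at a time, and between 28 and 30 genes stayed on the lower side. The number with an unadjusted p under 0.05 was less steady: it was 13 without regressing 2, 3 without regressing 3, and 4 without vehicle 3 or vehicle 4. With the muscle list as a covariate the median was -0.35, with 27 of 30 lower. Set beside these, the median among all 12 tumours was -0.80.

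**Figure D3:**
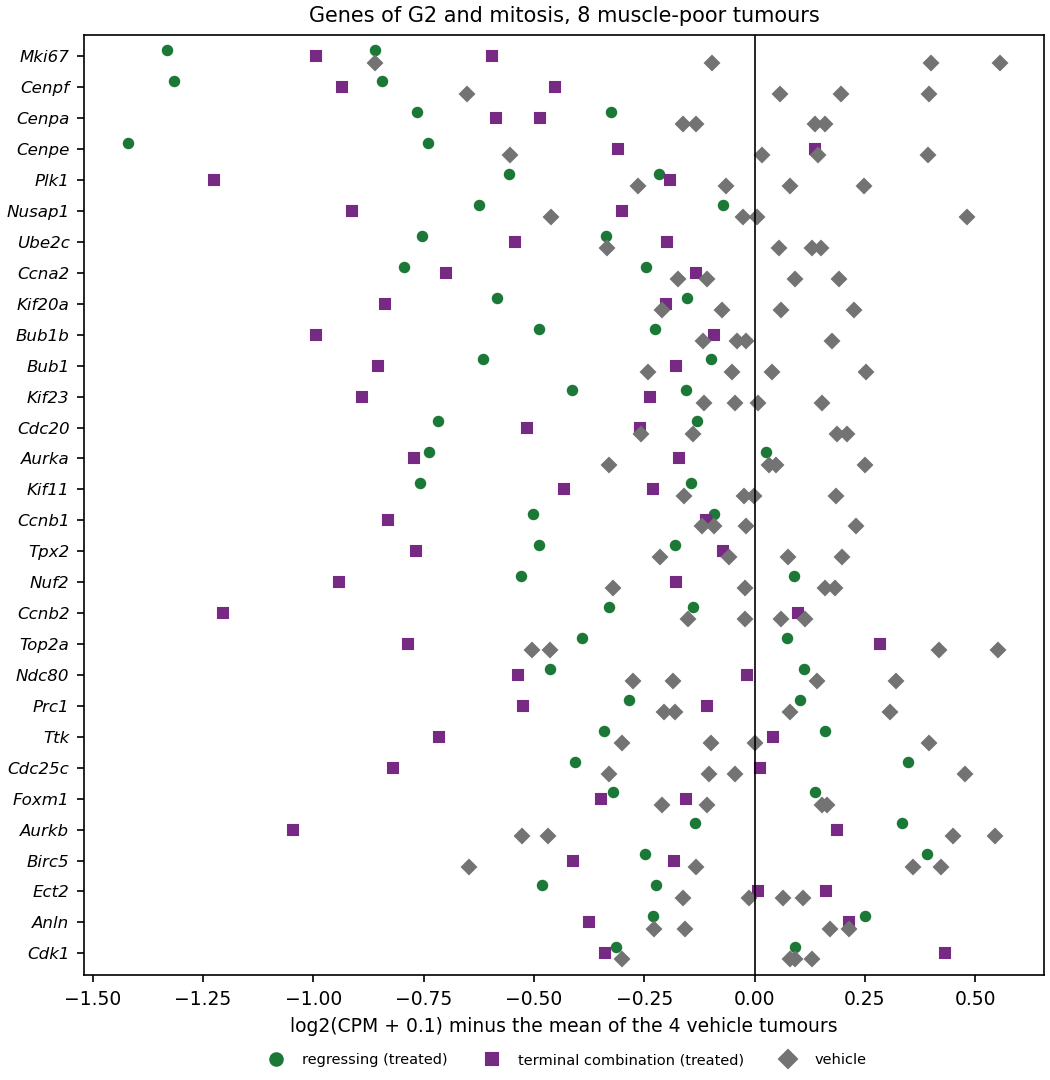
Level of each of the 30 G2 and mitosis genes in each of the 8 tumours, as log2(CPM + 0.1) minus the mean of the 4 vehicle tumours, with regressing (circles), terminal combination (squares) and vehicle (diamonds). The treated symbols sit mostly left of 0, and only Cenpa and Kif23 have all 4 of them left of all 4 vehicle symbols.

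E2F targets of S phase entry, the genes that CDK4/6 activity releases from RB, had mostly lower estimates of smaller size. Of 34 tested, 30 had a negative difference, 0 had an unadjusted p under 0.05, and the median was -0.21. Mcm4, a subunit of the replicative helicase, had 73.4, 93.6, 76.4 and 107 CPM in the treated tumours, against 94.3, 110.2, 126 and 117 CPM in the vehicle tumours, with a difference of -0.36 ± 0.17 and overlapping arms. E2f2, an activating E2F factor, had 8.26, 11.3, 5.696 and 15.4 CPM in the treated tumours, against 20.7, 8.56, 26.3 and 15.7 CPM in the vehicle tumours, a difference of -0.81. The helicase subunit Mcm5 and the flap endonuclease Fen1 had differences of -0.28 and -0.31, again with overlap. The median of the list was -0.05 without terminal combination 1, -0.36 without regressing 2, -0.32 without vehicle 1, -0.11 without vehicle 3 and -0.12 without vehicle 4, so its size rested on single tumours.

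The components of the CDK4/6 and RB pathway showed no shared direction. Of 18 genes 6 had a positive and 12 a negative difference, and the median was -0.12. The median was -0.04 without regressing 2 or without regressing 3, and -0.19 without terminal combination 3. Only 1 of the 18 had an unadjusted p under 0.05, on the lower side, against 1.54% of all genes lower at that threshold. That gene was Cdkn2c, which encodes the CDK4/6 inhibitor p18INK4C. It had 38.1, 36.1, 47.4 and 23.5 CPM in the treated tumours, against 57.2, 71.7, 59.7 and 41.8 CPM in the vehicle tumours. Vehicle 4 lay inside the treated range, and the difference was -0.67 ± 0.24 (unadjusted p = 0.0231). Of the kinases that palbociclib blocks, Cdk4 had 384, 398, 557 and 364 CPM in the treated tumours, against 355, 537, 457 and 429.8 CPM in the vehicle tumours. Cdk6 had 60.8, 80.4, 56.2 and 97.2 CPM in the treated tumours, against 58.1, 53.9, 60.4 and 70.6 CPM in the vehicle tumours. The arms overlapped for both kinases, with differences of -0.06 for Cdk4 and 0.28 for Cdk6. Rb1, which encodes RB, had 14.98, 14.95, 11.3 and 18 CPM in the treated tumours, against 24.8, 10.8, 17.9 and 13.2 CPM in the vehicle tumours, a difference of -0.17.

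The D cyclin genes Ccnd1 and Ccnd2, whose products activate CDK4 and CDK6, had higher estimates without a gap between the arms. Ccnd3 is not described here. Ccnd1 had 1058, 1453, 614 and 1577 CPM in the treated tumours, against 647, 854, 302 and 933 CPM in the vehicle tumours. Terminal combination 1 was below vehicle 1, 2 and 4, the other 3 treated tumours were above all vehicle tumours, and the difference was 0.78 ± 0.4 (unadjusted p = 0.0842). Ccnd2 had 113, 290.4, 219.9 and 312 CPM in the treated tumours, against 148, 30.97, 174 and 89.2 CPM in the vehicle tumours. Regressing 2 was inside the vehicle range and vehicle 2 was far below the rest, with a difference of 1.08 ± 0.51. E2f4, the E2F factor that works with RB-family repressors, had 72.2, 57.2, 61.2 and 85.99 CPM in the treated tumours, against 76.8, 76.7, 100.3 and 91.99 CPM in the vehicle tumours, a difference of -0.32 with overlap.

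Genes switched on by MEK and ERK showed no shared direction in treated tumours. Of 19 tested, 11 had a positive and 8 a negative difference. The median was 0.21, and it was -0.07 without terminal combination 3, -0.03 without terminal combination 1, 0.04 without vehicle 3 and 0.33 without vehicle 2. Fosl1, which encodes the AP-1 factor FRA1, was the 1 gene with an unadjusted p under 0.05, against 2.14% of all genes on the higher side. It had 92.6, 131, 86.2 and 68.5 CPM in the treated tumours, against 45.3, 53.3, 42.6 and 92.7 CPM in the vehicle tumours. Only vehicle 4 reached the treated range, and the difference was 0.69 ± 0.29 (unadjusted p = 0.0446).

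Feedback inhibitors of the pathway, which usually follow ERK activity closely, varied by tumour. Dusp6, the phosphatase that inactivates ERK, had 114, 134, 133 and 341 CPM in the treated tumours, against 121, 190.4, 140.4 and 150.4 CPM in the vehicle tumours. Terminal combination 3 stood far above the rest, and the difference of 0.26 was -0.25 without it. Spry4, a Sprouty inhibitor of receptor signalling, had 50.3, 75.4, 81.4 and 63.7 CPM in the treated tumours, against 41.3, 116, 21.1 and 45.3 CPM in the vehicle tumours, with vehicle tumours both below and above the treated ones. Etv4, an ETS factor induced by ERK, had 131, 74.99, 56.3 and 128 CPM in the treated tumours, against 51.96, 69.3, 69 and 98.2 CPM in the vehicle tumours, a difference of 0.44 ± 0.31 with overlap. Myc had 101, 84.5, 97.8 and 97.8 CPM in the treated tumours, against 84.7, 79.5, 396 and 142 CPM in the vehicle tumours. The 4 treated values lay close together and vehicle 3 was far above them. The difference of -0.88 was -0.11 without that tumour. Egr1, an immediate early gene, had 112, 131, 94.01 and 169 CPM in the treated tumours, against 139, 716, 69.3 and 94.6 CPM in the vehicle tumours. Vehicle 2 was far above the rest, and the difference of -1.01 was 0.33 without it.

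Receptor tyrosine kinases and their ligands, which signal upstream of RAS, split between both directions. Of 28 tested, 15 had a positive and 13 a negative difference, with a median of 0.12. On each side 1 gene had an unadjusted p under 0.05, against 2.14% of all genes higher and 1.54% lower at that threshold. The median was 0.04 without terminal combination 1, 0.06 without terminal combination 3 and 0.27 without vehicle 2. Kitl, the ligand of the receptor KIT, had 102, 146, 194 and 49.99 CPM in the treated tumours, against 75.7, 55.04, 59.2 and 77.1 CPM in the vehicle tumours. Terminal combination 3 was below every vehicle tumour and the other 3 treated tumours were above them, with a difference of 0.88 ± 0.37 (unadjusted p = 0.041). Erbb3, the neuregulin receptor of Schwann cells, had 1.84, 2.36, 1.097 and 5.57 CPM in the treated tumours, against 37.5, 1.14, 8.32 and 9.84 CPM in the vehicle tumours. Vehicle 2 was as low as the treated tumours, vehicle 1 was the highest by far, and the difference of -2.39 ± 0.93 (unadjusted p = 0.0314) was -1.25 without vehicle 1. The growth factor Igf2 had 0.178, 2.22, 0.366 and 3.41 CPM in the treated tumours, against 25.5, 0.227, 3.298 and 7.87 CPM in the vehicle tumours, with a difference of -2.57 that was -1.30 without vehicle 1. Ntrk2, a neurotrophin receptor, had 10.8, 5.05, 22.3 and 3.86 CPM in the treated tumours, against 2.12, 6.59, 0.524 and 4.36 CPM in the vehicle tumours, a difference of 1.63 that was 0.95 without terminal combination 1.

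The 12 named genes with the smallest p on the higher side had differences from 0.99 to 4.39, and the arms were apart for 11 of them, against 1.07% of all genes with treated tumours on top. They were chosen for their p in these same tumours, so this contrast follows largely from the choice. None passed after adjustment. Alox12, the 12-lipoxygenase that oxidises arachidonic acid (chr11:70241457-70255353), had 1.96, 4.72, 2.14 and 2.16 CPM in the treated tumours, against 0.563, 0.757, 0.471 and 0.835 CPM in the vehicle tumours. All 4 treated tumours exceeded all vehicle tumours, and the difference was 2.06 ± 0.41 (unadjusted p = 0.000873). Bmp6, a bone morphogenetic protein, had 5.83, 9.03, 3.71 and 4.71 CPM in the treated tumours, against 2.21, 1.51, 1.83 and 2.27 CPM in the vehicle tumours, a difference of 1.57 ± 0.34 with no overlap. Ulbp1, a ligand of the natural killer receptor NKG2D, had 76.5, 51.1, 118 and 69.9 CPM in the treated tumours, against 33.3, 40.7, 32.6 and 39.4 CPM in the vehicle tumours. The arms were apart and the difference was 1.11 ± 0.25 (unadjusted p = 0.00168). Among all 12 tumours the difference was 0.54 for Ulbp1, 1.9 for Alox12 and 1.58 for Bmp6.

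Enzymes and junction genes stood beside them. Gpx3, the secreted glutathione peroxidase, averaged 295 ± 105 CPM in treated and 105 ± 34.9 CPM in vehicle tumours (SD, n = 4 each). Ephx1, the microsomal epoxide hydrolase, averaged 58.03 ± 31.7 CPM in treated and 15.97 ± 5.27 CPM in vehicle tumours. Cldn1, a tight junction protein, had 11.2, 15.5, 12.1 and 26.8 CPM in the treated tumours, against 1.17, 4.39, 1.204 and 5.07 CPM in the vehicle tumours. The arms did not overlap for any of these 3 genes, with differences of 1.49, 1.86 and 2.48. They were also apart for Prr33 (2.43), the scaffold gene Magi2 (1.4), the transporter genes Slc22a18 (2.3) and Mfsd6 (0.99). Among all 12 tumours the difference was 4.02 for Prr33, 2.02 for Gpx3, 2.01 for Ephx1 and 2.62 for Cldn1. Pcdhga3, one of the clustered protocadherins of neuronal adhesion, had 2.497, 16.6, 11.7 and 18.8 CPM in the treated tumours, against 0.693, 0.227, 0.733 and 2.57 CPM in the vehicle tumours. Regressing 2 lay just under vehicle 4. The clustered genes share their last exons, and how the counting split such reads is not stated, so its value is uncertain.

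The 12 named genes with the smallest p on the lower side had differences between -1.66 and -0.54, and the arms were apart for 10 of them, against 0.946% of all genes in that direction. Here too the contrast follows largely from the choice by p, and none passed after adjustment. H2afx, the histone variant marked at DNA breaks (chr9:44334694-44336077), had 42.3, 38.4, 28.1 and 35 CPM in the treated tumours, against 53.1, 91.5, 75.5 and 59.1 CPM in the vehicle tumours. The highest treated value was below the lowest vehicle value, and the difference was -0.96 ± 0.21 (unadjusted p = 0.00157). Cdca7, a cell division gene with a role in chromatin remodelling, had 36.9, 32.2, 28.2 and 39.9 CPM in the treated tumours, against 46.2, 53.3, 72.1 and 52.7 CPM in the vehicle tumours, a difference of -0.71 ± 0.18 with no overlap.

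The other lower genes were of mixed function. Chn1, a GTPase activator for Rac, had 8.98, 5.601, 7.32 and 7.97 CPM in the treated tumours, against 24.2, 27.3, 11.3 and 15.5 CPM in the vehicle tumours, apart and with a difference of -1.39, which was 0.02 among all 12 tumours. Runx2, the bone lineage factor, had 12.6, 22.5, 20.7 and 19.7 CPM in the treated tumours, against 30.2, 42.6, 51.98 and 26.7 CPM in the vehicle tumours, also apart, with a difference of -1.0 ± 0.27. Itgax, which encodes the dendritic cell integrin CD11c, had 15.2, 10.97, 6.64 and 13.99 CPM in the treated tumours, against 34.1, 17.8, 50.7 and 21.95 CPM in the vehicle tumours. It was highest in vehicle 1 and 3, did not overlap, and differed by -1.41 ± 0.38 (unadjusted p = 0.00549). Among all 12 tumours the difference was -0.41 for Itgax and -0.77 for Runx2. Arhgef39, a guanine nucleotide exchange factor (-0.96), the RNA-binding gene Rbpms2 (-0.62), the Ras-like gene Rasl10a (-1.66) and the orphan receptor gene Gpr135 (-1.24) were apart as well. The ephrin receptor Ephb2 (-1.34) and the kinase Sbk1 (-1.07) overlapped by 1 tumour.

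**Figure D4:**
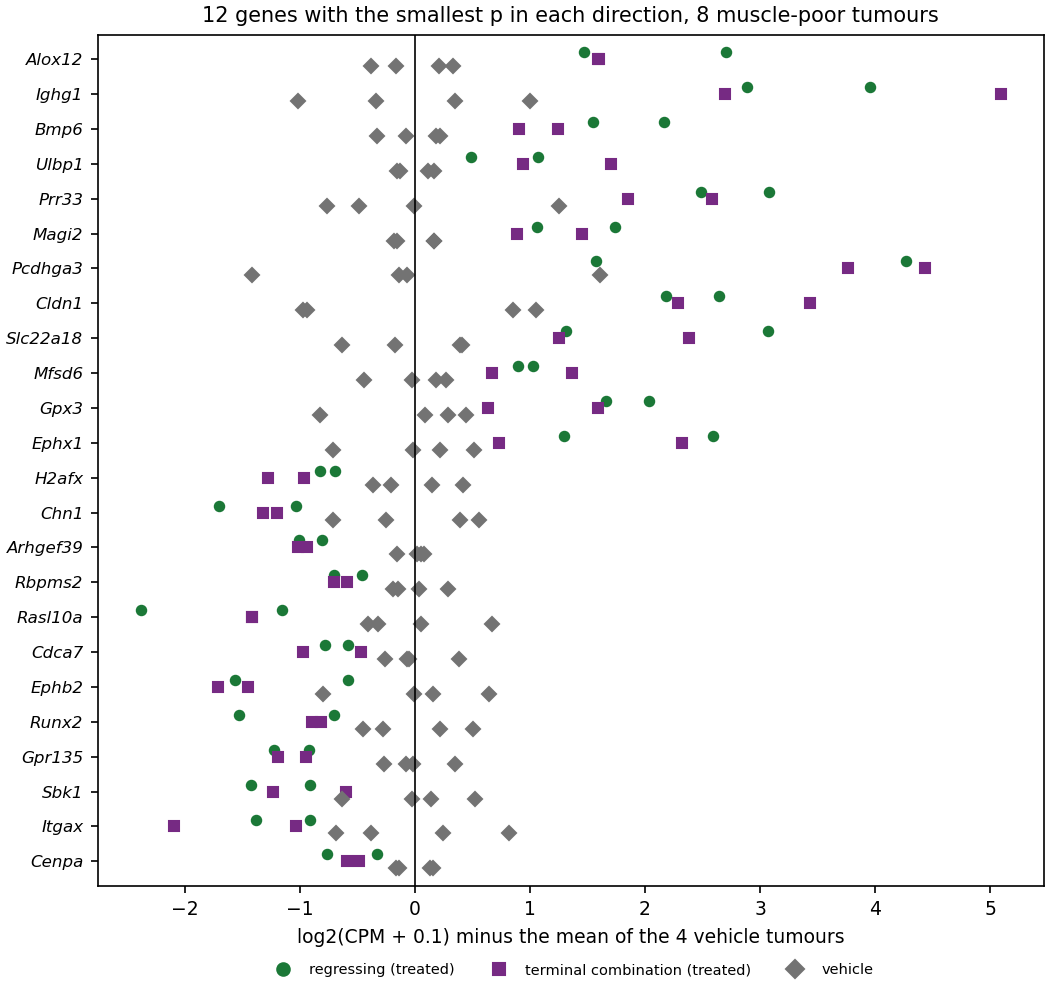
The 12 named genes with the smallest p on each side, as log2(CPM + 0.1) in each of the 8 tumours minus the mean of the 4 vehicle tumours, with regressing (circles), terminal combination (squares) and vehicle (diamonds). Treated and vehicle symbols are apart for 21 of the 24 genes; they were chosen for their p, and none passed after adjustment.

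Lysosomal genes had mostly higher and cholesterol synthesis genes mostly lower estimates. Of 24 lysosomal genes 20 had a positive difference, 2 of them with an unadjusted p under 0.05, against 2.14% of all genes on the higher side, and the median was 0.18. It was 0.10 without terminal combination 1, with 18 of 24 higher. Sqstm1, the autophagy receptor p62, had 657, 623, 539 and 590.1 CPM in the treated tumours, against 386, 438, 450.2 and 489 CPM in the vehicle tumours. The arms were apart and the difference was 0.45 ± 0.14 (unadjusted p = 0.0122). Tfeb, the factor that drives lysosome formation, had 18.1, 25, 17.1 and 18.5 CPM in the treated tumours, against 17.1, 13.9, 10.3 and 15.4 CPM in the vehicle tumours. Terminal combination 1 only just exceeded vehicle 1, so the arms were narrowly apart, and the difference was 0.47 ± 0.22. The protease cathepsin D, Ctsd, had 727, 879, 654 and 1012 CPM in the treated tumours, against 675, 399.8, 633 and 562 CPM in the vehicle tumours, a difference of 0.53 with overlap. Cathepsin L, Ctsl, had 629, 418, 862 and 536 CPM in the treated tumours, against 575, 1435, 2370 and 578 CPM in the vehicle tumours. Vehicle 2 and 3 were far above the rest, and the difference of -1.02 was -0.50 without vehicle 3.

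Of 21 genes of cholesterol synthesis and uptake 19 had a negative difference, 3 with an unadjusted p under 0.05, against 1.54% of all genes on the lower side, and the median was -0.37. It was -0.12 without vehicle 2, where 15 of 21 were lower and 0 had an unadjusted p under 0.05. Hmgcs1, the HMG-CoA synthase of an early step, had 45.01, 57.8, 43.6 and 60.5 CPM in the treated tumours, against 93.7, 114, 52.3 and 62.6 CPM in the vehicle tumours. Vehicle 1 and 2 were above the rest and the other 2 vehicle tumours lay near the treated range, with a difference of -0.64 ± 0.26 (unadjusted p = 0.0368). Dhcr7, the reductase of a last step, had 30.6, 38.1, 35.1 and 44.3 CPM in the treated tumours, against 48.5, 58.2, 48.4 and 42.1 CPM in the vehicle tumours, a difference of -0.41 with terminal combination 3 above vehicle 4. Idi1, the isopentenyl isomerase, had 5.71, 7.36, 5.49 and 6.27 CPM in the treated tumours, against 14.04, 18.02, 6.13 and 7.64 CPM in the vehicle tumours, a difference of -0.88, again with vehicle 1 and 2 on top. Vehicle 1 and 2 are also the 2 vehicle libraries whose titles end in FFT, and among the 5 tumours without that ending the median of the list was 0.08.

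Complement genes had higher estimates. Of 12 tested, 10 had a positive difference, 2 with an unadjusted p under 0.05, against 2.14% of all genes on the higher side, and the median was 0.48. It was 0.31 without regressing 2, with 9 of 12 higher and 1 at that threshold. C3, the central complement protein (chr17:57203970-57228136), had 159, 85.4, 109 and 81.4 CPM in the treated tumours, against 64.96, 57.2, 65.8 and 50.5 CPM in the vehicle tumours. All 4 treated tumours were above all vehicle tumours, and the difference was 0.87 ± 0.23 (unadjusted p = 0.00473). Cd55, which protects cells from complement, had 6.18, 6.94, 2.299 and 6.92 CPM in the treated tumours, against 4.16, 1.89, 1.68 and 2.63 CPM in the vehicle tumours. Terminal combination 1 was inside the vehicle range, and the difference was 1.1 ± 0.44 (unadjusted p = 0.0356). C1ra and C2, proteases of the classical pathway, had differences of 0.34 and 0.57 with overlap.

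Among the 8 muscle-poor tumours, antibody genes were highest in regressing 2. The study's title names plasma cells, the antibody-secreting cells that immunoglobulin transcripts mark. Immunoglobulin genes took 0.205% of the reads in regressing 2 and down to 0.00605% in the other treated tumours, against 0.00439% to 0.0292% in vehicle. Of the treated tumours left out by the Atp2a1 limit, regressing 1 had 0.0919% and regressing 4 had 0.178%, both above every vehicle tumour, and terminal combination 2 and 4 had 0.00426% and 0.00917%. Regressing 3, at 0.0238%, was the 1 regressing tumour inside the vehicle range. Igkc, the constant region of the kappa light chain, had 922, 91.7, 12.9 and 18.7 CPM in the treated tumours, against 9.79, 7.87, 2.46 and 83.5 CPM in the vehicle tumours. Regressing 2 was far above the rest, and regressing 3 and vehicle 4 were close to each other. The difference of 3.33 ± 1.59 (unadjusted p = 0.06701) was 0.67 without regressing 2. Jchain, which joins secreted IgM and IgA, had 111, 8.89, 0.679 and 1.05 CPM in the treated tumours, against 2.08, 1.14, 0.314 and 9.903 CPM in the vehicle tumours. Its difference of 3.18 was 0.08 without regressing 2. Ighm, the constant region of IgM, had 651, 85.1, 46.6 and 16.6 CPM in the treated tumours, against 83.8, 33.6, 45.9 and 118 CPM in the vehicle tumours, a difference of 1.51 that was -0.51 without regressing 2.

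Ighg1, the constant region of IgG1 (chr12:113325240-113330523), differed from these. It had 3.03, 1.39, 1.202 and 6.77 CPM in the treated tumours, against 0.303, 0, 0.157 and 0.0597 CPM in the vehicle tumours. All 4 treated tumours exceeded all vehicle tumours, of which 3 were at or under the level of 3 counts, and the fitted difference of 4.39 ± 0.89 depends on the prior count (unadjusted p = 0.0009196). It was highest in terminal combination 3, where Igkc was low. Ighd, the constant region of IgD, had 0.476, 0.648, 0.418 and 0 CPM in the treated tumours, against 0.823, 0.833, 1.57 and 1.55 CPM in the vehicle tumours, lower in every treated tumour, with a difference of -1.62 at these few counts. Of the 12 immunoglobulin constant genes 7 passed the filter on low counts, 6 with a positive difference and a median of 1.51, which was -0.42 without regressing 2 and 3.55 without vehicle 4.

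The tested genes of the plasma cell list had no shared direction. Mzb1, Tnfrsf17 and Pou2af1 did not pass the filter on low counts and were not tested. Jchain, given above, is on this list, which also holds genes made by other cells. Of 12 tested of 15, 7 had a positive and 5 a negative difference, with a median of 0.18, which was -0.17 without regressing 2, 0.05 without vehicle 2 and 0.08 without vehicle 3. Prdm1, the factor that sets plasma cell fate and is also made by other cells, had 8.15, 6.897, 8.21 and 2.86 CPM in the treated tumours, against 6.501, 99.6, 19.8 and 4.12 CPM in the vehicle tumours. Vehicle 2 stood far above the rest, and the difference of -2.31 ± 0.96 (unadjusted p = 0.0401) was -0.63 without it. Sdc1, the surface marker CD138, had 153, 183, 95.5 and 264 CPM in the treated tumours, against 174, 359, 313 and 241 CPM in the vehicle tumours, a difference of -0.64 with overlap, and Eaf2 had 0.81. Cxcl13, the chemokine that attracts B cells, had 16.1, 8.15, 0.366 and 2.41 CPM in the treated tumours, against 2.69, 11.3, 1.78 and 3.4 CPM in the vehicle tumours. Regressing 2 was the highest, and the difference of 0.5 was -0.38 without it. Cd274, which encodes PD-L1, had 8.92, 2.69, 5.38 and 5.92 CPM in the treated tumours, against 9.01, 2.498, 13.4 and 3.28 CPM in the vehicle tumours, a difference of -0.3 with vehicle tumours at both ends.

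Of 10 dendritic cell genes 8 had a negative difference, with a median of -0.51, and -0.99 without regressing 2. The dendritic cell median was -0.15 with regressing tumours alone as the treated arm and -1.0 with terminal combination tumours alone. Without the Atp2a1 limit it was 0.42, with 8 of 10 higher. Beside Itgax, the cross-presenting dendritic cell markers Xcr1 and Clec9a and the actin bundler Fscn1 had differences of -0.81, -0.52 and -0.55 with overlapping arms. Of 16 T cell genes, 7 had a positive and 9 a negative difference with a median of -0.08, and 0 had an unadjusted p under 0.05. That balance rested on regressing 2: without it the median was -1.27, 16 of 16 were lower and 7 had an unadjusted p under 0.05. In that fit 537 of 15432 genes were under 0.05 unadjusted, in either direction. The 16 genes were read in the same tumours and are not 16 separate observations. Without any other single tumour the T cell median lay between -0.09 and 0.24, changing sign without regressing 3, terminal combination 1 or 3 or vehicle 1. It was -1.01, with 16 of 16 lower, with terminal combination tumours alone as the treated arm, and 1.59, with 15 of 16 higher, without the Atp2a1 limit. For 16 macrophage genes the median was 0.14, with 12 higher. It was -0.13 without regressing 2 and -0.07 without vehicle 2, each with 5 of 16 higher. Without vehicle 1 it was 0.49, and without the other tumours it lay between 0.01 (vehicle 3) and 0.28 (regressing 3). The summed level of the macrophage genes ran from 4932 to 9078 CPM in treated and from 5547 to 10020 CPM in vehicle tumours.

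Markers of fat, blood and lymphatic vessels varied between tumours, and the mean level of each of these lists overlapped between the arms. Of 11 adipocyte genes tested of 12, 10 had a positive difference and the median was 2.01. Of these, 2 had an unadjusted p under 0.05, against 2.14% of all genes on the higher side. When 1 tumour was left out at a time, the adipocyte median ran from 1.55 to 2.94, with 10 or 11 genes higher. Their summed level was 112.7 to 553.2 CPM in treated and 32.1 to 185.1 CPM in vehicle tumours. Adipoq, the fat hormone adiponectin, had 24.02, 17.8, 0.679 and 0.903 CPM in the treated tumours, against 2.95, 0.53, 0.0524 and 1.73 CPM in the vehicle tumours. Both regressing tumours were high, both terminal combination tumours lay inside the vehicle range, and the difference was 3.02 ± 1.34. Plin4, a lipid droplet coat protein, had 11.95, 17.6, 2.87 and 4.26 CPM in the treated tumours, against 3.42, 0.53, 0 and 1.85 CPM in the vehicle tumours, a difference of 2.64 (unadjusted p = 0.0404). Car3, a carbonic anhydrase of fat and muscle, had 96.4, 336, 63.9 and 161 CPM in the treated tumours, against 90.2, 6.06, 14.7 and 52.4 CPM in the vehicle tumours, a difference of 2.01, with terminal combination 1 inside the vehicle range. Lpl, the lipoprotein lipase, had 20.7, 58.4, 20.96 and 17.1 CPM in the treated tumours, against 17.6, 6.51, 14.7 and 20.6 CPM in the vehicle tumours, a difference of 0.98, with regressing 3 far above the others.

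Red blood cell genes were highest in regressing 2. All 6 of the 8 listed genes that were tested had a positive difference, 4 with an unadjusted p under 0.05, against 2.14% of all genes on the higher side, and the median of 2.26 was 0.94, with 0 at that threshold, without regressing 2. Alas2, which starts haem synthesis in red cells, had 66.3, 3.796, 11.7 and 14.9 CPM in the treated tumours, against 1.91, 1.59, 3.72 and 7.87 CPM in the vehicle tumours, a difference of 2.68 ± 0.9 (unadjusted p = 0.0163). Regressing 3 was inside the vehicle range. Hbb-bs had 929.7, 39.6, 165 and 176 CPM in the treated tumours, against 29.6, 26.8, 59.5 and 155 CPM in the vehicle tumours, and this globin gene and Hbb-bt (2.47) are near-identical copies that can share reads. The order of tumours was the same for Alas2 and Hbb-bs among the treated tumours: regressing 2, terminal combination 3, terminal combination 1, regressing 3.

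The 6 lymphatic endothelial genes all had a positive difference, with a median of 0.67. Without regressing 2 the median was 0.28, with 5 of 6 higher, and with terminal combination tumours alone as the treated arm it was -0.64, with 2 of 6 higher. Mmrn1, a marker of lymphatic vessels, had 106, 103, 11.7 and 18.2 CPM in the treated tumours, against 14.8, 32.5, 22.3 and 43.1 CPM in the vehicle tumours. Both regressing tumours were above every other tumour and both terminal combination tumours were at the low end of vehicle. Lyve1, the hyaluronan receptor of lymphatics, had 100.2, 29.9, 15.9 and 15.2 CPM in the treated tumours, against 23.3, 6.06, 23.6 and 36.6 CPM in the vehicle tumours, high in regressing 2 only, and its difference of 0.85 was -0.14 without that tumour. The lymphatic chemokine Ccl21a had a difference of 1.68 (unadjusted p = 0.0414), and its near-identical copies can share reads. Pdpn, which encodes podoplanin, had 0.48. The part that fat, blood and lymphatic tissue has in the other differences was not tested.

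Schwann lineage genes split. Of 14 tested of 17, 7 had a positive and 7 a negative difference, with a median of -0.10, which was 0.37 without vehicle 2, 0.32 without vehicle 4, -0.36 without vehicle 3 and -0.18 without terminal combination 3. S100b, a calcium-binding protein of Schwann cells that is also made by fat, had 2.56, 10.8, 5.23 and 2.56 CPM in the treated tumours, against 3.16, 0.151, 0.262 and 0.477 CPM in the vehicle tumours, a difference of 2.34 ± 0.95 (unadjusted p = 0.0375). Vehicle 1 was inside the treated range and the other vehicle tumours far below it.

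The treated arm joined a pair of harvest stages, which share the 4 vehicle tumours as their controls. Against vehicle, 0 of 16145 genes (0.0%) passed in regressing tumours with a smallest adjusted p of 0.630, and 657 (4.07%) had an unadjusted p under 0.05, 355 higher (2.2%) and 302 lower (1.87%). In terminal combination tumours 0 genes (0.0%) passed with a smallest adjusted p of 0.9998, and 442 (2.74%) were under 0.05 unadjusted, 256 higher (1.59%) and 186 lower (1.15%). DESeq2 called 34 genes in regressing tumours (0.175%, with 27 higher and 7 lower) and 5 in terminal combination tumours (0.0196%, with 4 higher and 1 lower). Each of these tests sets 2 tumours against 4 and says little about stability.

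By list, the stages were alike for some gene groups and apart for others, as values without a test. The G2 and mitosis median was -0.33 in regressing and -0.40 in terminal combination tumours against vehicle. For cholesterol synthesis it was -0.50 and -0.31, and for complement and lysosome genes the 2 medians differed by less than 0.1. The E2F target median was 0.02 in regressing and -0.39 in terminal combination tumours, and the MEK-ERK output median was -0.15 and 0.34. Adipocyte genes had 2.53 in regressing and 0.01 in terminal combination tumours, and immunoglobulin constant genes 2.38 and -0.72.

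**Figure D5:**
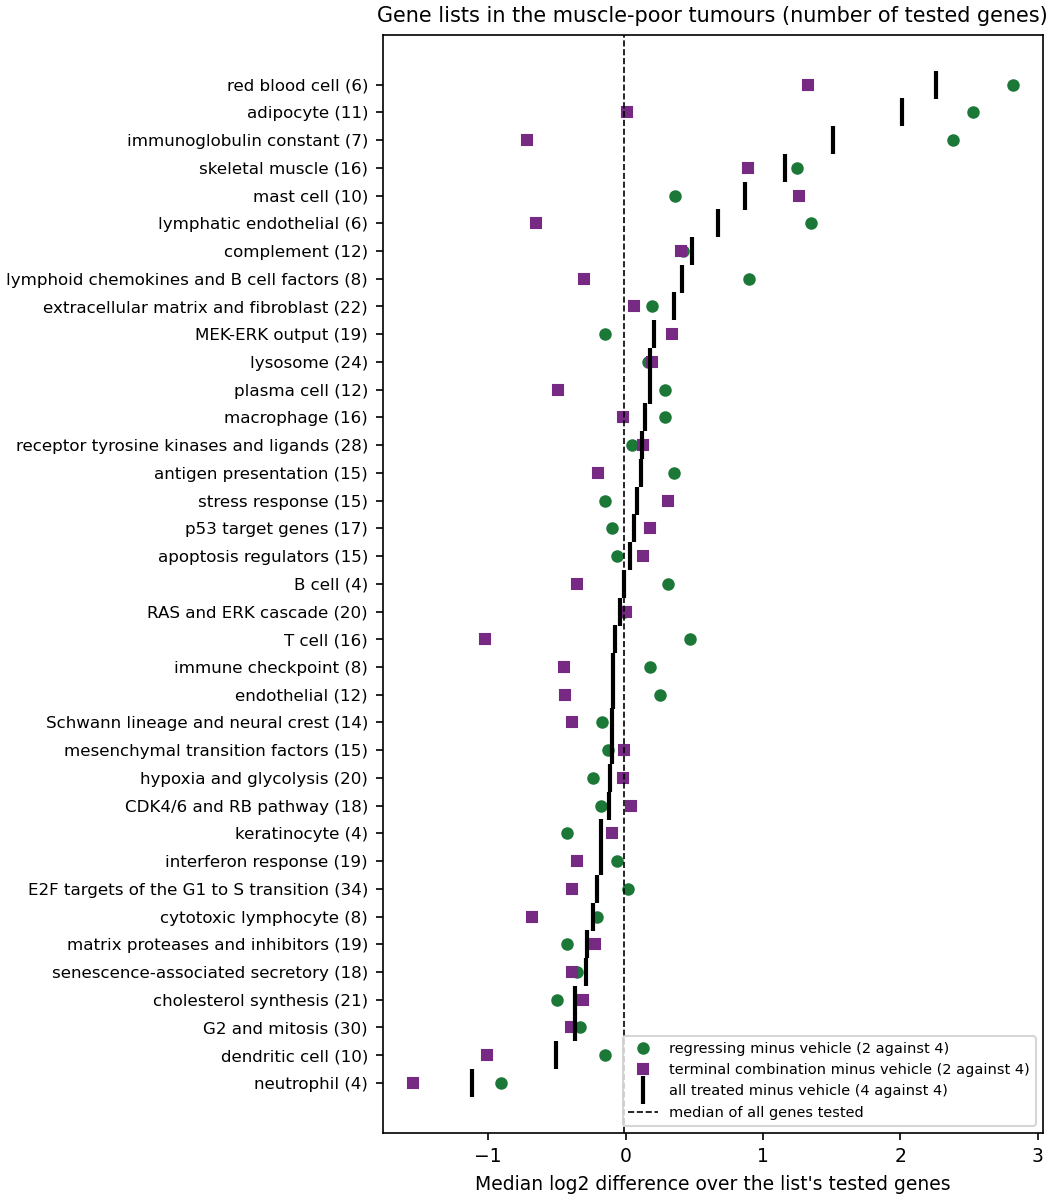
Median log2 difference over the tested genes of each of 37 lists (number in brackets), for regressing against vehicle (circles), terminal combination against vehicle (squares) and all treated against vehicle (bars); the dashed line is the median of all genes tested. Adipocyte genes sit at 2.53 in regressing and 0.01 in terminal combination tumours, while the G2 and mitosis medians lie together at -0.33 and -0.40.

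The stages were also set against each other, 2 tumours against 2. Again 0 of 16145 genes (0.0%) passed with edgeR, the smallest adjusted p was 0.638, and 598 (3.7%) had an unadjusted p under 0.05, 218 higher (1.35%) and 380 lower (2.35%) in regressing tumours. DESeq2 called 24 (0.133%), of which 17 were higher and 7 lower. Pcsk6, a proprotein convertase, had the smallest p, with 27.7 and 34.4 CPM in regressing, against 6.32 and 5.47 CPM in terminal combination and 10.2, 8.78, 10.9 and 11.9 CPM in vehicle tumours. Both regressing tumours were above all others and both terminal combination tumours below all others. The difference between the stages was 2.4 ± 0.28 (edgeR unadjusted p = 3.95e-05 and adjusted p = 0.638, DESeq2 adjusted p = 7.03e-11).

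The next genes were higher in regressing tumours too. Hp, the haemoglobin-binding protein haptoglobin, had 172 and 79.02 CPM in regressing, against 12.3 and 7.77 CPM in terminal combination and 18.6, 9.46, 6.65 and 10.02 CPM in vehicle tumours. The difference between the stages was 3.64 ± 0.6, with an adjusted p of 0.997 by edgeR and 1.45e-05 by DESeq2. Nr1d1, the clock repressor REV-ERBα, had 60.8 and 102 CPM in regressing, against 23.5 and 16.6 CPM in terminal combination and 15.04, 18.7, 25.1 and 20.9 CPM in vehicle tumours, a difference of 2.03 ± 0.36 (DESeq2 adjusted p = 0.00249). Mmrn1, described above, differed by 2.81 ± 0.5 (DESeq2 adjusted p = 0.000518), and Apoc1, an apolipoprotein, by 4.15 ± 0.79 (DESeq2 adjusted p = 0.151) at levels under 2 CPM. By edgeR the adjusted p was 0.997 for Nr1d1, for Mmrn1 and for Apoc1. In these 5 genes both regressing tumours exceeded both terminal combination tumours, and the genes were chosen for the size of that difference relative to its spread.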

How the data were processed

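Per the labels, TruSeq stranded mRNA libraries were made from tumour RNA extracted with an RNeasy kit. The authors deposited raw counts per Ensembl gene, 54532 genes in each library. Per the submitters' processing notes, HISAT2 2.2.1, Salmon and DESeq2 1.24.0 were used with mm10 and GRCm38.p6. The counting tool, strand setting and annotation release are not given in the sources used here, so overlapping genes and close copies may share reads. GENCODE M21 supplied symbols and positions for 54495 identifiers, and RefSeq (GRCm38.p6) the promoters.

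The limit on Atp2a1 used CPM of the library total. All other CPM used TMM-adjusted library sizes of the 8 tumours, which had 14181703 to 22639625 reads. Genes passing filterByExpr (minimum count 10, minimum total 15) were tested with the edgeR 4.0.16 quasi-likelihood model (limma 3.58.1, R 4.3.3), treated against vehicle, with both stages as 1 arm. The stages were tested as contrasts of a 3-group fit. P-values were adjusted by Benjamini-Hochberg over all genes tested, with a threshold of 0.05. The SE was taken from the difference and its F statistic. DESeq2 1.42.0 was run as an alternative, and tables and figures used Python 3.11.15, pandas 2.3.3, numpy 2.4.6 and matplotlib 3.10.9. The steps were tested on simulated counts in 3 draws of 200 changed genes among 15111. Libraries were checked for duplicates by chi-square, with 52.6 per degree of freedom as the lowest of any pair.

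The tumours, the 37 gene lists (603 entries, 553 tested) and the tests were chosen with earlier results of these data known. The genes named are the 12 with the smallest p on each side, up to 4 members with the smallest p of each of 15 lists described, the 5 with the smallest p between the stages, and Nf1, Cdkn2a, Cdk4, Cdk6, Ccnd1, Rb1, Mki67, Dusp6, Spry4, Etv4, Igkc, Jchain, Cxcl13, Cd274 and Atp2a1. Some genes that this rule selects are not reported here. Any other gene was chosen after its values were seen. Replicate numbers are names in accession order. Alternatives were RLE scaling, no filter, DESeq2, 3 groups in 1 fit, the title ending FFT as a covariate or left out, the muscle list as a covariate, other limits on Atp2a1, each stage alone, and each tumour left out in turn. No source used here says what the title ending FFT stands for, which was carried by 1 treated and 2 vehicle tumours of the 8.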

Additional observations from a re-analysis of the deposited data

Results flagged for a closer look

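In 6 of 180 groups of 4 tumours checked, 1 tumour stood farther from the other 3 than Dixon's 95% limit allows, and chance alone gives about 1 in 20 such groups. All 6 were in the treated arm. Alox12 had 4.72 CPM in regressing 3, against 1.96 to 2.16 CPM in the other treated tumours. Lpl had 58.4 CPM in regressing 3, against 17.1 to 20.96 CPM in the others. Myc had 84.5 CPM in regressing 3, just under the 97.8 to 100.5 CPM of the others, which lay unusually close together. Dusp6, the ERK phosphatase, had 340.8 CPM in terminal combination 3, against 114.1 to 134.4 CPM. Prdm1 had 2.86 CPM in terminal combination 3, against 6.90 to 8.21 CPM. Cd55 had 2.30 CPM in terminal combination 1, against 6.18 to 6.94 CPM. The cause of each was not tested.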

How the results depend on the processing

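The count of 0 genes called by edgeR held under all 20 alternatives of the comparison of treated with vehicle tumours except DESeq2, which called 2, and in the contrasts of the stages DESeq2 called 34 in regressing and 5 in terminal combination tumours against vehicle and 24 between the stages. Unadjusted p-values under 0.05 numbered 317 to 1588. No paired analysis was run, because the replicate numbers used here are names in accession order and do not pair tumours between the arms. Of 353 alternative values of list medians and call counts, 322 stayed within the spread between tumours or, for counts, within 1.5 times the count reported. That rule is loose and does not measure stability, because a median that changed sign could count as staying. Examples are immunoglobulin constant genes (1.51, and -0.42 without regressing 2) and MEK-ERK output (0.21, and -0.07 without terminal combination 3). The cause of the changes below was not tested.

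An Atp2a1 limit of 1000 CPM keeps only 1 treated tumour, terminal combination 1, with 3 vehicle tumours. Under it the medians were 0.20 for adipocyte, -0.79 for lymphatic endothelial, -0.78 for E2F target, -0.84 for G2 and mitosis, -0.11 for MEK-ERK output and -0.54 for immunoglobulin constant genes. Genes whose sign turned were Pcsk6 (-0.73), Mmrn1 (-1.48), Nf1 (0.38), Cdk4 (0.23), Cdk6 (-0.13), Ccnd1 (-0.18), Dusp6 (-0.27), Etv4 (-0.49), Igkc (-1.29), Jchain (-2.47), Cxcl13 (-3.87), Adipoq (-0.18), Ccl21a (-0.42), Lyve1 (-0.47) and Ighm (-0.50). A limit of 5000 CPM, which adds terminal combination 4, gave Schwann genes a median of 0.50. Without a limit the medians were -0.56 for E2F target, -0.80 for G2 and mitosis, 0.39 for Schwann and 0.42 for dendritic cell genes, and the sign turned for Chn1 (0.02), Rb1 (0.11), Dusp6 (-0.05), Etv4 (-0.08), Ighd (2.89), Xcr1 (0.02) and Clec9a (0.19).

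With the muscle list as a covariate, Schwann genes had a median of 1.01, and Cdk4 (0.20) and Egr1 (0.04) turned. Without the libraries ending in FFT the medians were 3.62 for adipocyte, 0.08 for cholesterol synthesis and 0.43 for Schwann genes, and Cdkn2a (1.05), Rb1 (0.04) and Egr1 (0.75) turned. With regressing tumours alone the MEK-ERK output median was -0.15 and Dusp6 was -0.28. With terminal combination tumours alone the medians were 0.01 for adipocyte, -0.64 for lymphatic endothelial, -0.72 for immunoglobulin constant, -0.48 for plasma cell and -1.0 for dendritic cell genes, and the sign turned for Pcsk6 (-0.82), Hp (-0.15), Mmrn1 (-0.91), Nf1 (0.19), Cdk4 (0.05), Igkc (-0.72), Jchain (-1.95), Cxcl13 (-1.77), Adipoq (-0.74), Lyve1 (-0.52) and Ighm (-1.16). Cxcl13 was -0.22 with 3 groups in 1 fit.

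Leaving out 1 tumour at a time, Cd274 ran from -0.60 to 0.20, Cdk4 from -0.22 to 0.04, Cxcl13 from -0.38 to 1.36, Dusp6 from -0.25 to 0.43, Egr1 from -1.32 to 0.33, Ighm from -0.51 to 1.88, Lyve1 from -0.14 to 1.18 and Rb1 from -0.33 to 0.08. The medians ran from -0.07 to 0.33 for MEK-ERK output, -0.36 to 0.37 for Schwann, -0.99 to -0.34 for dendritic cell and -0.42 to 3.55 for immunoglobulin constant genes. Depth limits the genes under about 1 CPM, such as Ighd and Apoc1, where an arm rests on a few reads a tumour.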

Other observations

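Some genes of the nerve sheath and neural crest set tumours apart within both arms. They were chosen after their values were seen. Sox2, a factor of Schwann cell precursors, had 0.119, 3.61, 8.1 and 0.1003 CPM in the treated tumours, against 0, 77.2, 21.4 and 0 CPM in the vehicle tumours. Tfap2a, a neural crest factor, had 10.2, 1.898, 26.6 and 0.401 CPM in the treated tumours, against 1.3, 59.3, 24.1 and 3.88 CPM in the vehicle tumours. Gap43, a growth cone protein of immature Schwann cells, had 12.3, 17.2, 69.2 and 8.32 CPM in the treated tumours, against 4.897, 221, 50.4 and 13.6 CPM in the vehicle tumours. Terminal combination 1 was the highest treated tumour for all 3 genes, and vehicle 2 and 3 were the highest of the vehicle tumours. Egr2, which drives myelination, had 14.03, 18.98, 7.79 and 17.9 CPM in the treated tumours, against 16.9, 121, 5.97 and 13.8 CPM in the vehicle tumours, with vehicle 2 far above the rest. Differences between treated and vehicle tumours ran from -3.04 for Sox2 to -1.18 for Tfap2a, with overlapping arms and unadjusted p-values of 0.175 and 0.4002. They do not stand for the Schwann lineage and neural crest list. Of its 14 tested genes, 7 had a positive difference, S100b with 2.34 among them, and 7 a negative one, with a median of -0.10.

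Mast cell genes also varied by tumour. Of 10 tested, 8 had a positive difference and the median was 0.87, with summed levels from 79.5 to 467.6 CPM in treated and from 62.5 to 286.0 CPM in vehicle tumours. The mast cell median was -0.08, with 5 higher and 5 lower, without terminal combination 1, 1.52 without vehicle 1, 0.48 without vehicle 3 and 2.79 at the Atp2a1 limit of 1000 CPM. Interferon response genes had no stable direction. Of 19 tested, 17 had a negative difference with a median of -0.18, and 0 had an unadjusted p under 0.05. Without vehicle 1 the interferon median was 0.36 with 18 of 19 higher, without regressing 3 it was 0.09 with 12 higher, and without the libraries ending in FFT it was 0.20 with 15 higher. It was -0.73 without regressing 2, -0.46 without vehicle 2, -0.37 without vehicle 4 and -0.02 without terminal combination 1.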
